A study of Bos taurus with 6 samples.

Results

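The mitochondrial carriers of the SLC25 family were followed in cultured bovine granulosa cells (GC) plated at normal or high density. A transcript cluster, the unit in which the array reports a gene, was taken as a member when its gene symbol was SLC25A followed by a number or was UCP1, UCP2 or UCP3. This gave 45 transcript clusters with 44 different symbols among 26773 transcript clusters in all, and they were sorted into 12 groups by the cargo they are known to carry. The rule itself used only names and no measured value. The family and the gene lists read beside it were chosen with earlier results of these data known.

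Total RNA of 6 cultures was hybridised to Affymetrix arrays of the type Bovine Gene 1.0 ST, with 3 cultures at each density. Both groups held primary GC aspirated from small to medium sized follicles of abattoir ovaries, pooled over many cows whose cycle stage was not defined. All cultures grew for 9 days on collagen-coated plates in serum-free alpha-MEM with FSH, IGF-1 and androstenedione, and the groups differed in the number of cells put into each well at the start. The methods speak of separate GC preparations, but the labels do not say whether the replicates were separate pools or cultures, so that p-values measure the spread between these samples.

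SLC25 proteins sit for the most part in the inner mitochondrial membrane, which is otherwise closed to charged metabolites, and most of them swap a substrate in the matrix for a substrate in the cytosol. In this way they bring in ADP, phosphate, fatty acyl groups and iron, and let out ATP and citrate. In the granulosa layer of the follicle the mitochondria also house the side-chain cleavage of cholesterol, the first step of steroid synthesis. A few family members lie elsewhere: SLC25A17 is a peroxisomal protein and SLC25A46 is bound to the outer mitochondrial membrane.

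Values are log2 signals, so that a difference of 1 is a doubling, and a log2 change is the mean at high density minus the mean at normal density, given with its standard error (SE). Changes were tested with limma over all transcript clusters with Benjamini-Hochberg adjustment. A transcript cluster was called up- or down-regulated when its fold change (FC) exceeded 1.5 with p below 0.05 and an adjusted p (FDR) below 0.05. "Rose" and "fell" are used for a carrier that passed the FDR at any FC. A signal of 4.62, the 95th percentile of 82 reporter control rows, served as the background level. As in any bulk sample, fewer cells of a type and less RNA per cell cannot be told apart.

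The cell type was checked on marker lists. All 10 granulosa markers exceeded the background level in at least 1 group. Of these 10, 5 were called down-regulated (CYP19A1, FSHR, INHA, INHBA and FOXL2) and 1 up-regulated (HSD17B1). The called share was 60%, against 12.8% of all transcript clusters whose higher group mean lay above background. The mean log2 signal of that list ran from 7.01 to 7.24 in the normal density cultures and from 6.18 to 6.34 in the high density cultures. For 3 theca markers it ran from 4.67 to 4.80 at normal and from 4.86 to 4.99 at high density, a mean over opposite changes. INSL3 was called up-regulated, with group means of 7.20 at normal and 9.02 at high density. LHCGR was called down-regulated (means 4.04 and 2.84) and, like the defining enzyme CYP17A1, lay below background in both groups. The paper names LHCGR beside FSHR as a gonadotropin receptor affected in these GC. Among 5 endothelial, 5 leukocyte, 3 erythroid and 3 surface epithelium markers none was called by limma or by the methods' t-test, which stands in for the study's analysis of variance. Of these 16 markers 7 had an unadjusted p below 0.05, and the markers above background were VWF and MSLN. The endothelial markers KDR (log2 change 0.48, adjusted p = 0.0275 in limma) and TEK (−0.36, adjusted p = 0.0303 in limma) passed the FDR, both with means below background. Their mean signals ran from 3.16 to 3.20 against 3.27 to 3.31 for endothelium and from 3.36 to 3.47 against 3.33 to 3.48 for leukocytes, normal against high density. The erythroid list ran from 2.61 to 2.67 against 2.71 to 2.87, and the surface epithelium list from 3.83 to 3.86 against 3.92 to 4.04. The part of these marker shifts in the carrier results was not tested.

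The carriers moved in both directions and mostly by small amounts. UCP2 was called up-regulated, and the carnitine/acylcarnitine carrier SLC25A20 and the aspartate/glutamate carrier SLC25A12 were called down-regulated. These 3 of 45 members are 6.67%, against 7.49% of all transcript clusters, and by direction the table held 3.97% up and 3.51% down. At any FC, 8 members rose and 8 fell, 35.6% of the members, against 19.1% of all transcript clusters (8.64% up and 10.4% down). The remaining 29 members did not pass the FDR.

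The share past the FDR has to be read beside signal level. Of the members, 32 had both group means above the background level, 13 had neither, and none had only 1. Among the 32 measured above background, 13 passed the FDR (40.6%), against 31.9% of the 13077 transcript clusters whose higher group mean lay above that level. The called share was 9.38% against 12.8% on the same basis. The signals of the density groups were apart, with no overlap between cultures, in 24 of 45 members (53.3%, against 37.3% of all transcript clusters). Above background they were apart in 21 of 32 members (65.6% against 54.8%).

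The median log2 change of the members was 0.03, against 0.02 over all transcript clusters, with 24 members higher and 21 lower. The median size of the change, regardless of sign, was 0.21 against 0.15. Above background these medians were −0.03 against −0.05 for the change and 0.25 against 0.21 for its size. Changes ran from −0.92 for SLC25A20 to 0.80 for UCP2.

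**Figure D1:**
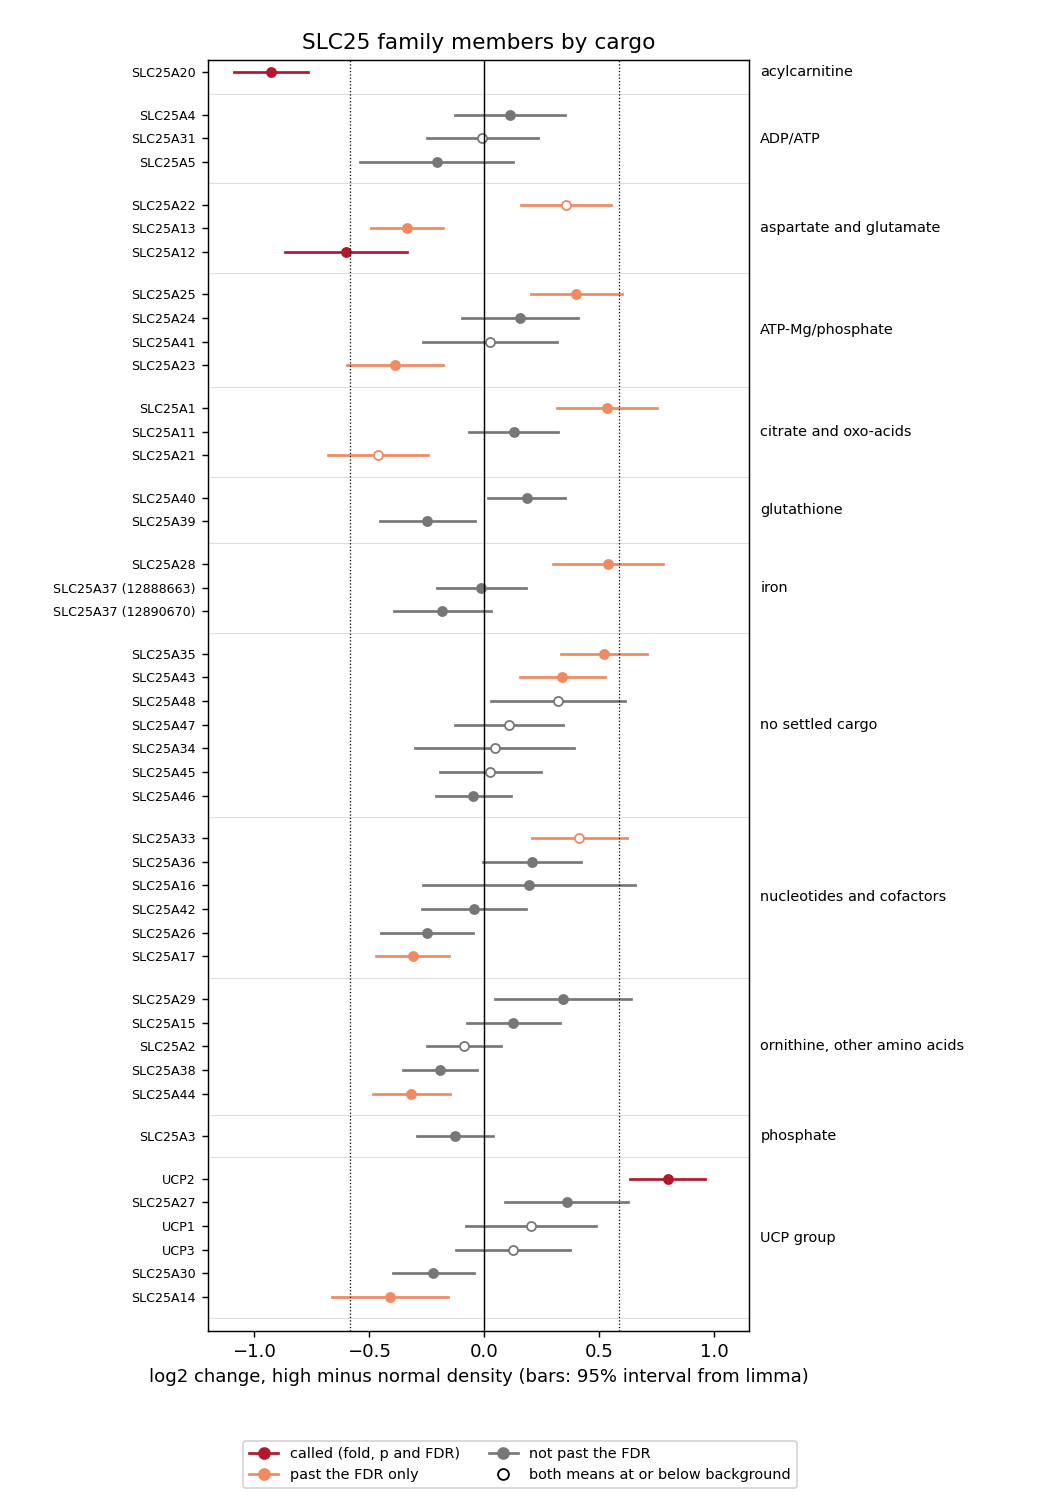
Log2 change, high minus normal density, of 44 transcript clusters of the family, in 12 groups by cargo. Points are limma estimates with 95% intervals, open points had neither group mean above the background level, and dotted lines mark an FC of 1.5. SLC25A20 lies farthest to the left at −0.92 and UCP2 farthest to the right at 0.80, and both directions occur within most cargo groups.

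SLC25A20 exchanges acylcarnitines for free carnitine and is the only route for long-chain acylcarnitines into the matrix, between the enzymes CPT1 and CPT2. Transcript cluster 12795827 gave log2 signals of 6.20, 6.26 and 6.24 in normal density replicates 1 to 3 and of 5.38, 5.29 and 5.25 in high density replicates 1 to 3. All high density cultures were below all normal density cultures, and the cultures of a group lay close together. Its mean fell from 6.23 ± 0.03 to 5.31 ± 0.07 (SD, n = 3), a log2 change of −0.92 (SE 0.07, 95% interval −1.09 to −0.76) and an FC of 1.90 with limma's adjusted p = 0.000176. With each culture left out in turn the change stayed between −0.96 and −0.90, and the call was made each time.

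The enzymes on both sides of this carrier were read from a list of 12 genes of the carnitine shuttle and of fatty acid oxidation. Of these, 1 rose, 6 fell and 5 did not pass the FDR, and the median log2 change was −0.25. The share past the FDR was 58.3%, against 31.9% of all transcript clusters above background. CPT1A, which makes acylcarnitines at the outer membrane, was called down-regulated with log2 signals of 8.28, 8.37 and 8.32 at normal and 7.19, 6.96 and 7.36 at high density. That was a log2 change of −1.15 (SE 0.11, adjusted p = 0.000444 in limma). CPT1B, the isoform typical of muscle, was called up-regulated, with signals of 5.46, 5.31 and 5.04 at normal and 6.39, 6.26 and 6.44 at high density. Its log2 change was 1.09 (SE 0.12, adjusted p = 0.000825 in limma), so that these isoforms moved in opposite directions with no overlap between groups in either. The other 5 genes that fell, named here after their values were seen, were CROT (−0.52), HADHB (−0.44), HADHA (−0.43), ACADVL (−0.40) and CPT2 (−0.29). They handle chain shortening products, long-chain steps of beta-oxidation and the return of acylcarnitine to acyl-CoA. ACADL, a long-chain gene of the same list, did not pass the FDR (−0.05, adjusted p = 0.850 in limma), and its groups overlapped.

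UCP2 is a widely expressed member of the uncoupling protein group and is known to let metabolites out of the matrix. Transcript cluster 12730764 gave log2 signals of 6.48, 6.44 and 6.51 at normal density and of 7.32, 7.20 and 7.30 at high density. Every high density culture was above every normal density culture. The mean rose from 6.48 ± 0.03 to 7.27 ± 0.07 (SD, n = 3), a log2 change of 0.80 (SE 0.07, 95% interval 0.64 to 0.96) and an FC of 1.74 with limma's adjusted p = 0.000332. It was called whichever culture was left out, with changes from 0.77 to 0.84.

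The UCP group held 5 further members, of which 3 were higher and 2 lower at high density, and of these 5 only SLC25A14 passed the FDR. With UCP2 counted, 33.3% of the group passed, against 19.1% of all transcript clusters. SLC25A14, also known as brain mitochondrial carrier protein, gave signals of 5.996, 6.06 and 6.05 at normal and 5.51, 5.86 and 5.50 at high density. High density replicate 2 lay between the normal density cultures and the other high density cultures. SLC25A14 fell by 0.41 on the log2 scale (SE 0.11, adjusted p = 0.0372 in limma), which did not reach the FC limit. With a culture left out, SLC25A14 passed the FDR in limma only without high density replicate 2 (adjusted p = 0.00253). In the other cases SLC25A14 did not pass, with adjusted p-values of up to 0.115, nor by the methods' t-test (adjusted p = 0.120). Its close relative SLC25A30 had a change of −0.22 (limma's adjusted p = 0.0833) and SLC25A27 a change of 0.36 (limma's adjusted p = 0.0690), both with the groups apart. UCP1, the heat-producing protein of brown fat, and UCP3, of muscle, did not exceed the background level in either group.

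**Figure D2:**
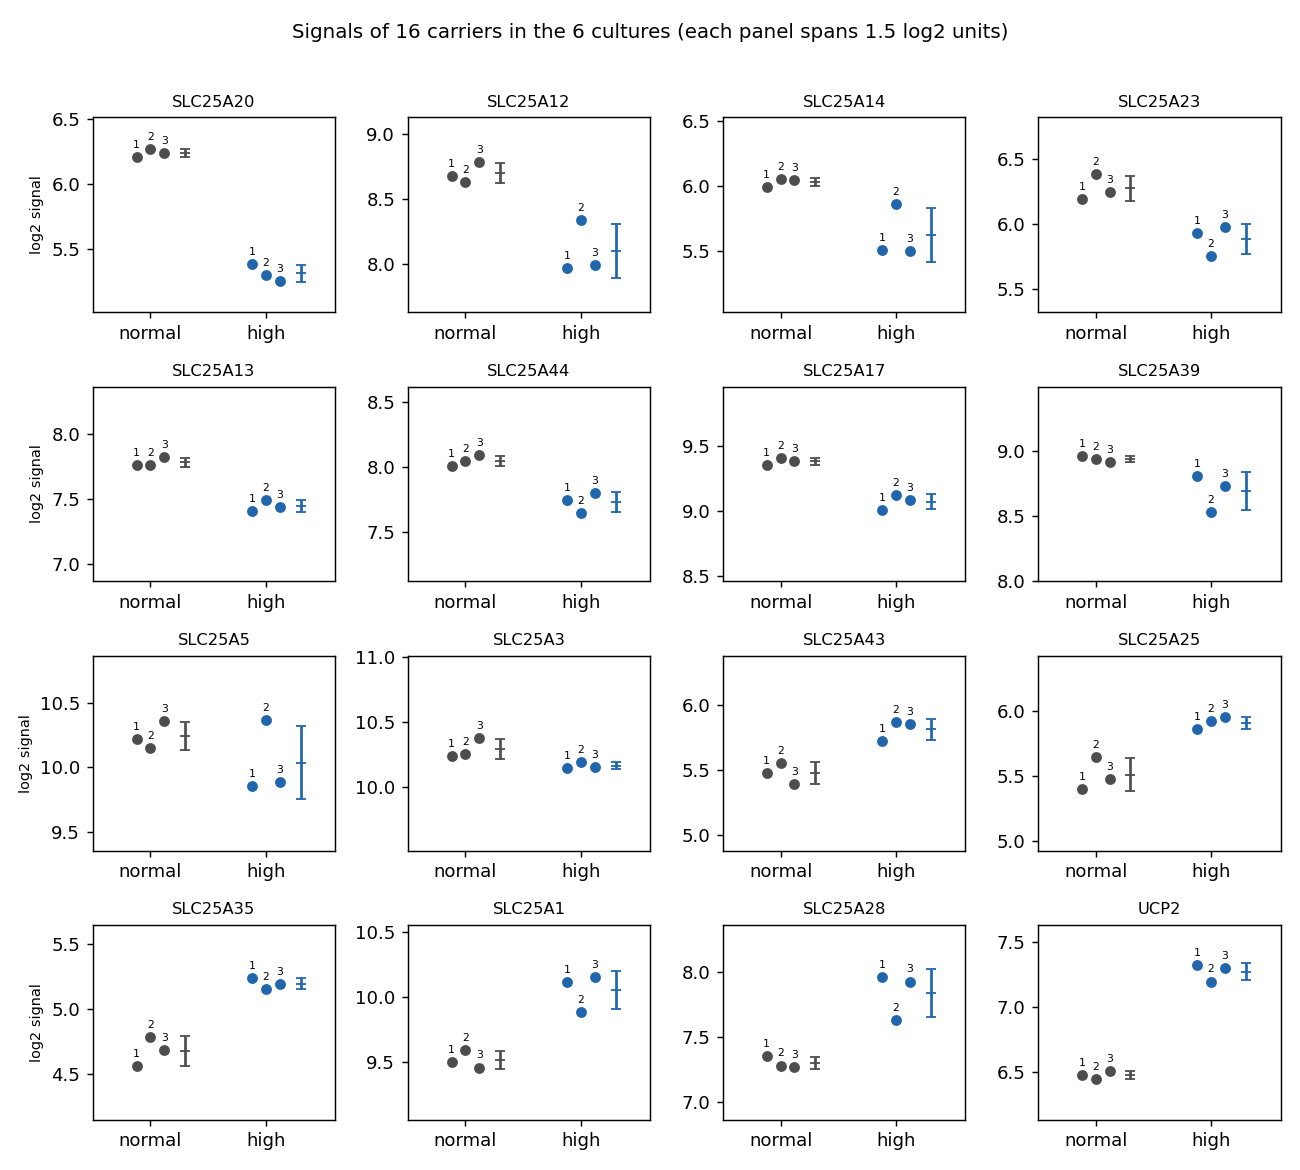
Log2 signals of 16 carriers in each of the 6 cultures (points, numbered by replicate) with the group mean and SD (bars, n = 3). Each panel spans 1.5 log2 units around its own carrier, so shifts can be compared between panels but not levels. High density replicate 2 lies nearer to the normal density cultures than the other high density cultures do for SLC25A12, SLC25A14, SLC25A5, SLC25A1 and SLC25A28.

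All 3 transcript clusters of the aspartate and glutamate carriers passed the FDR, against 19.1% of all transcript clusters. Of them, 2 were lower and 1, with both means below background, was higher at high density. SLC25A12 and SLC25A13 are calcium-stimulated carriers that send aspartate out for glutamate within the malate-aspartate shuttle, which brings reducing equivalents into the matrix. SLC25A12 (transcript cluster 12778525) gave log2 signals of 8.68, 8.63 and 8.79 at normal and 7.97, 8.34 and 7.99 at high density. All high density cultures were lower, and replicate 2 was the highest of them. The mean fell from 8.70 ± 0.08 to 8.10 ± 0.21 (SD, n = 3), a log2 change of −0.60 (SE 0.11, 95% interval −0.86 to −0.33) and an FC of 1.51 with limma's adjusted p = 0.0102.

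The call of SLC25A12 stood close to the FC limit, a log2 change of 0.58 in size. Leaving out replicate 3 of the normal density (−0.56) or replicate 1 (−0.53) or 3 (−0.55) of the high density ended it, and leaving out replicate 2 of the high density did not (−0.72). The methods' t-test gave an adjusted p of 0.0633.

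SLC25A13 gave signals of 7.76, 7.77 and 7.83 at normal and 7.41, 7.50 and 7.44 at high density. The groups were apart and each was tight. It fell by 0.34 (95% interval −0.49 to −0.18, SE 0.07, adjusted p = 0.0123 in limma), and without normal density replicate 3 the adjusted p was 0.0608. SLC25A22, a carrier of glutamate with a proton, rose by 0.35 (limma's adjusted p = 0.0246) from a mean of 4.07 to 4.42, with both means below background. Left-out cultures ended that FDR in all cases but that of high density replicate 2, and it was also lost by the methods' t-test.

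The enzymes of the malate-aspartate and glycerol phosphate shuttles mostly did not pass the FDR. Of 6 listed genes 1 passed (16.7%, against 31.9% of all transcript clusters above background), and the median log2 change was −0.04. This was GPD2, the mitochondrial glycerol phosphate dehydrogenase, with signals of 5.79, 5.86 and 6.03 at normal and 4.98, 5.39 and 5.03 at high density. GPD2 was called down-regulated with a log2 change of −0.76 (SE 0.13, adjusted p = 0.00583 in limma), and again high density replicate 2 was the highest of its group.

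SLC25A1 exports citrate from the matrix in exchange for malate and so supplies acetyl-CoA for fatty acid and sterol synthesis in the cytosol. Transcript cluster 12745488 gave log2 signals of 9.50, 9.59 and 9.46 at normal and 10.11, 9.88 and 10.16 at high density. All high density cultures were higher, replicate 2 the least. The mean rose from 9.52 ± 0.07 to 10.05 ± 0.15 (SD, n = 3), a log2 change of 0.53 (SE 0.09, 95% interval 0.32 to 0.75) and an FC of 1.45 with limma's adjusted p = 0.00696. It stayed under the FC limit and was thus not called, except without high density replicate 2 (log2 change 0.62) and with array weights.

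Genes that make and use citrate were listed with this carrier, 8 in all. Of these, 3 rose, 1 fell and 4 did not pass the FDR, with a median log2 change of 0.17. The share past the FDR was 50%, against 31.9% of all transcript clusters above background. ACLY, which splits citrate in the cytosol, was called up-regulated with signals of 10.42, 10.38 and 10.29 at normal and 10.99, 10.96 and 11.05 at high density, a log2 change of 0.63 (SE 0.07, adjusted p = 0.000982 in limma). FASN, the fatty acid synthase, was called up-regulated with signals of 9.78, 9.73 and 9.49 against 10.67, 10.57 and 10.72, a log2 change of 0.99 (SE 0.09, adjusted p = 0.000527 in limma). For both genes all high density cultures were above all normal density cultures.

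The other carriers of this cargo group were SLC25A11 and SLC25A21. SLC25A11, the oxoglutarate/malate carrier of the malate-aspartate shuttle, had a change of 0.13 (limma's adjusted p = 0.334). SLC25A21, a carrier of oxoadipate and oxoglutarate, fell by 0.46 (limma's adjusted p = 0.0132) from a mean of 4.59 to 4.13, below background in both groups. It lost the FDR without normal density replicate 2 and by the methods' t-test.

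**Figure D3:**
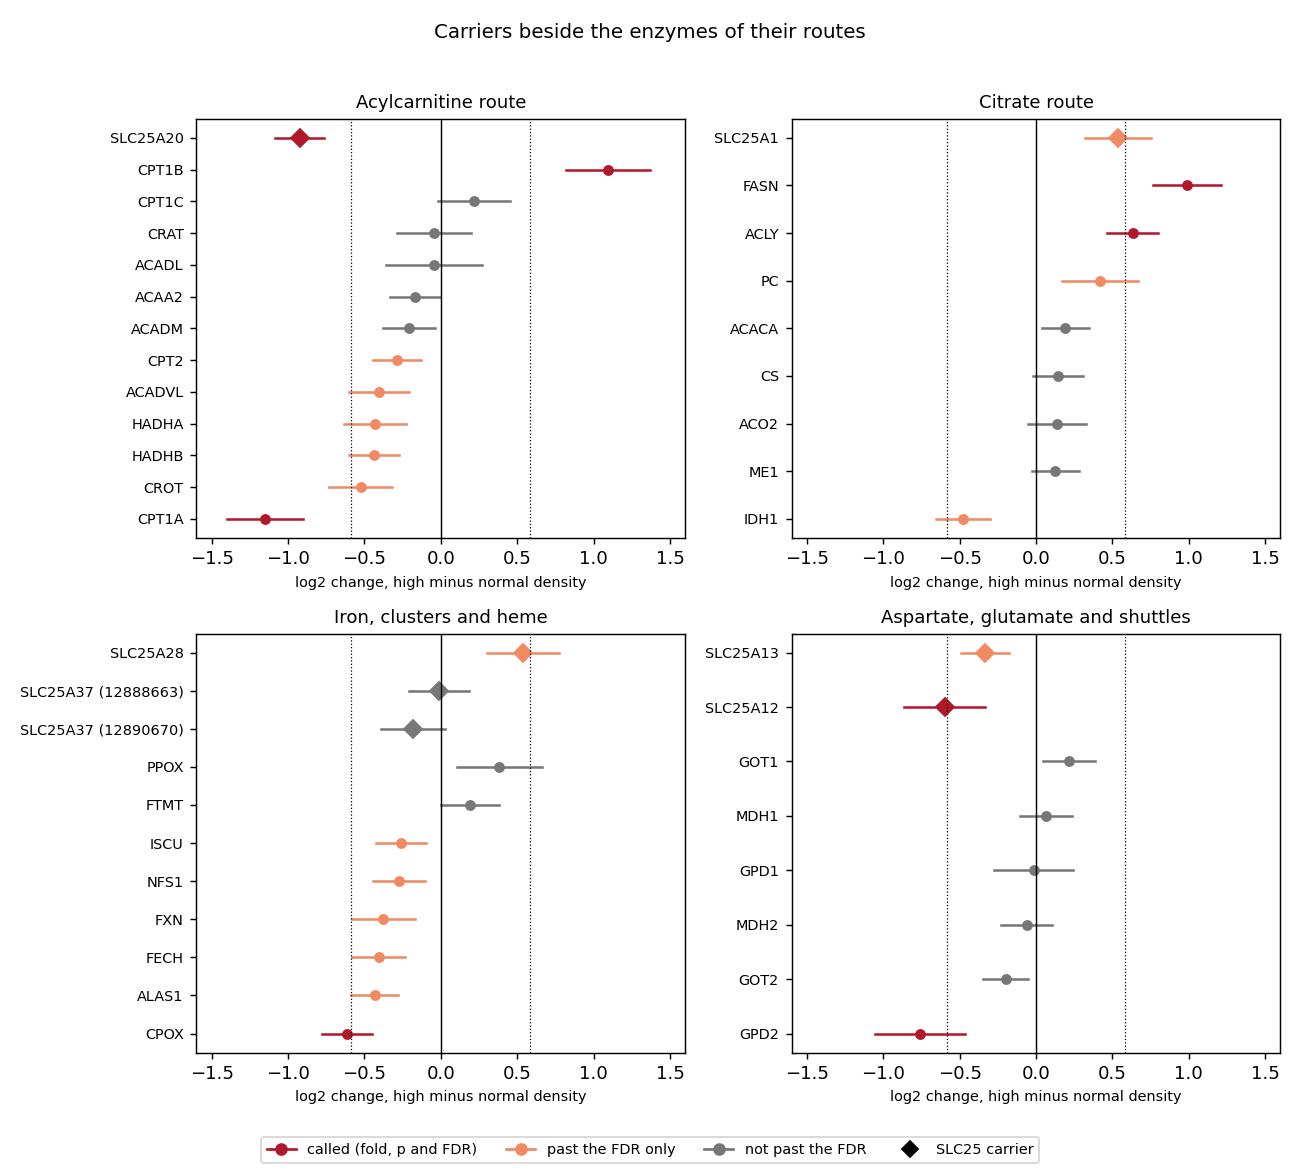
Log2 change, high minus normal density, of SLC25 carriers (diamonds) beside listed genes of the same route (circles), with 95% intervals from limma. Dotted lines mark an FC of 1.5. SLC25A20 and CPT1A lie on the left of the acylcarnitine panel with CPT1B on the right, and SLC25A1 lies on the right of the citrate panel with FASN and ACLY.

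Iron enters the matrix through the mitoferrins, SLC25A28 in most tissues and SLC25A37 mainly in erythroid cells. SLC25A28 (transcript cluster 12822932) gave log2 signals of 7.35, 7.28 and 7.27 at normal and 7.96, 7.63 and 7.93 at high density. High density replicate 2 was the lowest of its group and still above every normal density culture. The mean rose from 7.30 ± 0.05 to 7.84 ± 0.18 (SD, n = 3), a log2 change of 0.54 (SE 0.10, 95% interval 0.30 to 0.78) and an FC of 1.45 with limma's adjusted p = 0.0101. The methods' t-test gave an adjusted p of 0.0564, and without high density replicate 2 the change was 0.64 and passed all thresholds.

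SLC25A37 was the single symbol with 2 transcript clusters. Transcript cluster 12888663 had a change of −0.01 (95% interval −0.21 to 0.18, limma's adjusted p = 0.941) and 12890670 a change of −0.18 (95% interval −0.39 to 0.03, limma's adjusted p = 0.216). In the RefSeq annotation of the current bovine assembly the latter is listed as LOC523756, a neighbour of SLC25A37 that carries this symbol as a synonym. None of 3 erythroid markers exceeded the background level.

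Of 8 genes that use this iron for iron-sulphur clusters and heme, none rose and 6 fell, with a median log2 change of −0.32. The share past the FDR was 75%, against 31.9% of all transcript clusters above background. CPOX, which makes protoporphyrinogen in heme synthesis, was called down-regulated with signals of 6.63, 6.62 and 6.71 at normal and 5.98, 6.07 and 6.08 at high density. The groups were apart, and the log2 change was −0.61 (SE 0.07, adjusted p = 0.00109 in limma). SLC25A38, the glycine carrier of heme synthesis, had a change of −0.19 (limma's adjusted p = 0.102) with the groups apart.

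The ATP-Mg/phosphate carriers adjust the adenine nucleotide pool of the matrix, and SLC25A23, SLC25A24 and SLC25A25 are switched on by calcium. SLC25A25 gave signals of 5.40, 5.65 and 5.48 at normal and 5.86, 5.92 and 5.95 at high density. SLC25A23 gave signals of 6.19, 6.38 and 6.24 at normal and 5.93, 5.76 and 5.97 at high density. The high density cultures were thus all higher for SLC25A25 and all lower for SLC25A23. SLC25A25 rose by 0.40 (95% interval 0.20 to 0.60, SE 0.08, adjusted p = 0.0156 in limma), and SLC25A23 fell by 0.39 (95% interval −0.60 to −0.18, SE 0.09, adjusted p = 0.0229 in limma).

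Leaving out a culture ended the FDR of SLC25A25 for normal density replicates 1 and 3 and high density replicate 3, with adjusted p-values of up to 0.066. It ended that of SLC25A23 for normal density replicates 2 and 3 and high density replicate 1, with adjusted p-values of up to 0.0876. The methods' t-test gave adjusted p-values of 0.0504 for SLC25A25 and 0.0708 for SLC25A23. SLC25A24 had a change of 0.16 (limma's adjusted p = 0.367), and SLC25A41 was below background.

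Differences between close relatives were read within each culture as a description, for pairs chosen after their values were seen. The signal of SLC25A25 minus that of SLC25A23 moved by 0.79 between the densities, with SDs of 0.03 at normal and 0.12 at high density. For SLC25A40 minus SLC25A39 the shift was 0.43, and for SLC25A28 minus SLC25A37 it was 0.55 with transcript cluster 12888663 and 0.72 with 12890670. For SLC25A13 minus SLC25A12, which fell together, it was 0.26. Of these pairs only SLC25A25 and SLC25A23 both passed the FDR in opposite directions. An exact permutation test gave p = 0.1 for each pair, the smallest possible with 3 cultures per group. Since the pairs were picked on their values, that test is not used as support.

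SLC25A39 brings glutathione into the matrix, and SLC25A40 is its nearest relative. SLC25A39 gave signals of 8.96, 8.94 and 8.91 at normal and 8.81, 8.53 and 8.74 at high density. The groups were apart, but its change of −0.25 (95% interval −0.45 to −0.04) did not pass the FDR (limma's adjusted p = 0.0974). SLC25A40 had a change of 0.19 (limma's adjusted p = 0.120), again with the groups apart.

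The carriers that serve ATP synthesis directly did not pass the FDR. SLC25A5, the ADP/ATP exchanger of dividing cells, gave signals of 10.22, 10.15 and 10.36 at normal and 9.86, 10.36 and 9.89 at high density. High density replicate 2 lay with the normal density cultures, so the groups overlapped. The change was −0.21 (95% interval −0.54 to 0.13, limma's adjusted p = 0.368), and without high density replicate 2 it was −0.37 with an adjusted p of 0.0212. SLC25A4, the exchanger of heart and muscle, had a change of 0.11 (limma's adjusted p = 0.508), and SLC25A31, the germ cell form, was below background.

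Phosphate for ATP synthase comes through SLC25A3. Its signals were 10.24, 10.25 and 10.38 at normal and 10.14, 10.19 and 10.15 at high density. The groups were apart by a small margin, with a change of −0.13 (95% interval −0.29 to 0.04, limma's adjusted p = 0.269).

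Among 7 carriers of nucleotides and cofactors, 1 rose and 1 fell (28.6% past the FDR, against 19.1% of all transcript clusters). SLC25A17, the peroxisomal carrier of CoA, FAD and NAD, gave signals of 9.35, 9.40 and 9.39 at normal and 9.01, 9.12 and 9.08 at high density. All high density cultures were lower. It fell by 0.31 (95% interval −0.47 to −0.15, SE 0.07, adjusted p = 0.0176 in limma), but this FDR held for only 1 of the 6 left-out cultures, high density replicate 2, and the adjusted p reached 0.0753 in the others. SLC25A33, a pyrimidine nucleotide carrier, rose by 0.41 (limma's adjusted p = 0.0161) from 4.17 to 4.58, below background. It lost the FDR without normal density replicate 1 or 3 and by the methods' t-test.

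The related pyrimidine carrier SLC25A36 had a change of 0.21 (limma's adjusted p = 0.165), and SLC25A26, which imports S-adenosylmethionine, a change of −0.25 (limma's adjusted p = 0.0863). In both the groups were apart. SLC25A16, linked to CoA and shown in full here after its values were seen, gave signals of 7.20, 7.22 and 7.32 at normal and 7.11, 7.94 and 7.29 at high density. There a single culture, high density replicate 2, stood above all others, and the change of 0.20 had an adjusted p of 0.548 by limma. SLC25A42, a carrier of CoA, had a change of −0.04 (limma's adjusted p = 0.804).

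Among 5 amino acid carriers outside the aspartate and glutamate group, 20% passed the FDR, against 19.1% of all transcript clusters. The carrier that passed was SLC25A44, which imports branched-chain amino acids. Its signals were 8.01, 8.04 and 8.09 at normal and 7.74, 7.65 and 7.80 at high density. The groups were apart, and it fell by 0.32 (95% interval −0.48 to −0.15, SE 0.07, adjusted p = 0.0207 in limma). The FDR was lost when any normal density culture or high density replicate 1 was left out, with adjusted p-values of up to 0.0872. SLC25A29, a carrier of basic amino acids, had a change of 0.34 (limma's adjusted p = 0.106), and SLC25A15, the ornithine carrier of the urea cycle, a change of 0.13 (limma's adjusted p = 0.360). The second ornithine carrier, SLC25A2, was below background.

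PYCR1 and ALDH1L2 held the largest changes among the listed metabolic and mitochondrial genes, the cell type markers left aside. PYCR1, which makes proline in the mitochondria, was called up-regulated with signals of 6.12, 6.28 and 5.95 at normal and 8.06, 7.70 and 8.25 at high density, a log2 change of 1.88 (SE 0.15, adjusted p = 0.000230 in limma). It was the only called gene among 8 of ornithine, proline and glutamate metabolism, of which 2 rose and none fell (median 0.05). There the share past the FDR was 25%, against 31.9% of all transcript clusters above background. In mitochondrial folate and glycine metabolism 6 of 8 transcript clusters, which stand for 7 genes, rose and none fell (median 0.43). The share past the FDR was 75%, against 31.9% of all transcript clusters above background. In this list ALDH1L2 (1.81), MTHFD2 (0.90) and MTHFD1L (0.68) were called up-regulated. The folate carrier SLC25A32, which the array lists under an older symbol, had a change of −0.20 (SE 0.11, adjusted p = 0.269 in limma).

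In 7 members the cargo is not settled. SLC25A35 gave signals of 4.56, 4.79 and 4.69 at normal and 5.24, 5.16 and 5.20 at high density, which put the normal density cultures close to the background level. All high density cultures were higher, and it rose by 0.52 (95% interval 0.33 to 0.71, FC 1.43, SE 0.08, adjusted p = 0.00416 in limma), with the FDR passed whichever culture was left out. SLC25A43 gave 5.48, 5.56 and 5.39 at normal and 5.72, 5.87 and 5.85 at high density. Again the groups were apart, and it rose by 0.34 (95% interval 0.15 to 0.53, SE 0.08, adjusted p = 0.0235 in limma). That FDR was lost with replicate 1 or 3 of the normal or replicate 3 of the high density left out (adjusted p up to 0.0945), by the methods' t-test (0.0528) and after median centring (0.0540). SLC25A46, which takes part in mitochondrial fusion and fission, had a change of −0.05 (limma's adjusted p = 0.695), and SLC25A34, SLC25A45, SLC25A47 and SLC25A48 were below background.

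**Figure D4:**
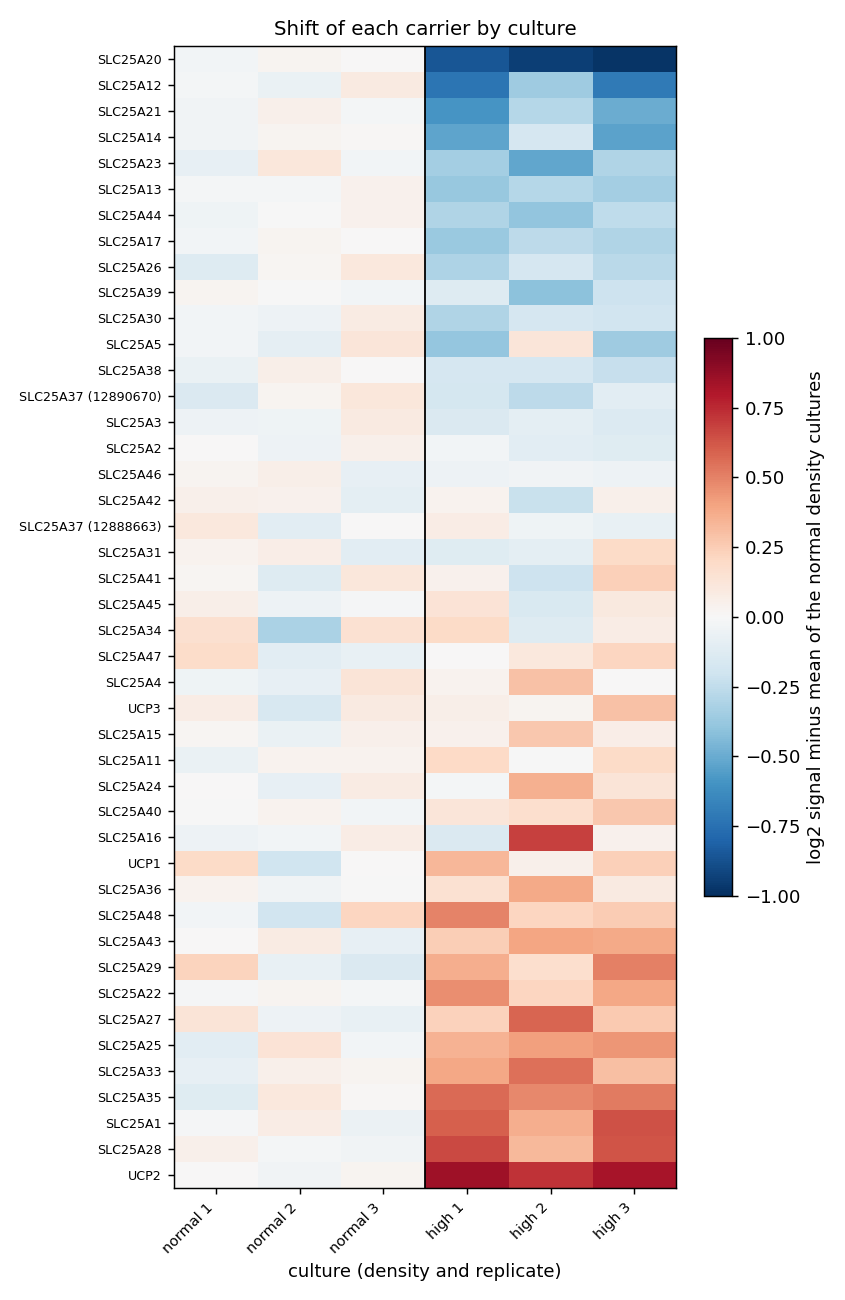
Shift of 44 transcript clusters of the family in each of the 6 cultures, as the log2 signal minus the mean of the 3 normal density cultures, ordered by log2 change. High density replicate 2 is paler than the other high density cultures for SLC25A12, SLC25A14 and SLC25A5 and stands alone for SLC25A16.

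The spread among cultures was not the same in both groups. The median SD of the members was 0.07 at normal and 0.13 at high density, against 0.08 and 0.13 over all transcript clusters, and 29 of 45 members had the larger SD at high density. High density replicate 2 was the culture farthest from its group's median in 30 of 45 members, replicate 1 in 10 and replicate 3 in 5. Over all transcript clusters replicate 2 was the farthest in 49.5%. Array medians ran from 4.34 to 4.43. Without high density replicate 2, 5 members were called and 18 passed the FDR, and without normal density replicate 3 the FDR was passed by 7.

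Genes outside the symbol rule were also read. MPC1, a subunit of the pyruvate carrier that is not an SLC25 protein and is listed under an older symbol, was called up-regulated with signals of 6.72, 6.83 and 6.79 at normal and 7.59, 7.76 and 7.71 at high density. Its groups were apart and its log2 change was 0.91 (SE 0.08, adjusted p = 0.000276 in limma). It was the only called gene among 13 carriers and carrier-like proteins outside the symbol rule, of which 2 rose and 2 fell (median 0.04). The share past the FDR was 30.8%, against 31.9% of all transcript clusters above background. None of 9 genes of the TIM22 and TOM import route, by which carriers reach the inner membrane, passed the FDR by limma or by the methods' t-test, with 2 at an unadjusted p below 0.05 (median 0.05).

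Of 5 calcium uniporter genes 1 rose and 1 fell (40% past the FDR, median 0.07). Of 3 outer membrane pore genes 1 rose (33.3%, median 0.03). Among 9 genes of mitochondrial number and biogenesis 1 rose and 1 fell (22.2%, median −0.07), against 31.9% of all transcript clusters above background. PPARGC1B, a coactivator of mitochondrial genes, was called up-regulated there with a log2 change of 0.65 (SE 0.07, adjusted p = 0.000698 in limma). Over all 89 transcript clusters of these lists, 84 of them above background in both groups, 12 were called (13.5%), 9 up and 3 down, which is close to the 12.8% of all transcript clusters above background. At any FC 17 rose and 18 fell (39.3% against 31.9%).

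**Figure D5:**
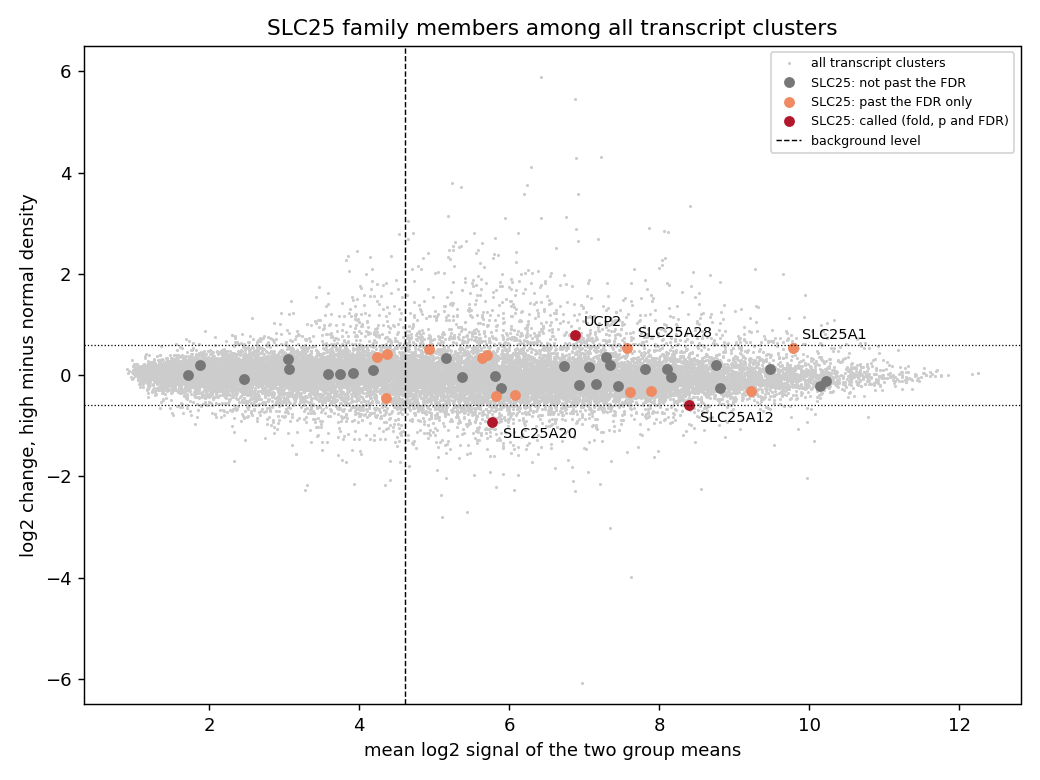
Log2 change, high minus normal density, against the mean log2 signal of both groups for all 26773 transcript clusters (small points) and 44 SLC25 members (large points). The dashed line is the background level of 4.62 and dotted lines mark an FC of 1.5. The called members are UCP2, SLC25A20 and SLC25A12, and 12 of the large points lie left of the dashed line.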

How the data were processed

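The deposited values are log2 signals that the authors made with Affymetrix Expression Console and RMA at default settings (background correction, quantile normalization, gene-level summary). Array annotation release and genome build are not given in the sources used here. Groups came from the labels, and 0 columns belonged to other samples. The number of arrays (3 per group) limits the precision.

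Carriers were found by symbol, and older symbols of other listed genes through RefSeq accessions and synonyms. SLC25A6, SLC25A10, SLC25A18 and SLC25A52 were not analysed here. The values of 1 further member, which stays in all counts, are not reported here. The members and lists were chosen with earlier results of these data known. limma 3.58.1 in R 4.3.3 (lmFit, eBayes with 1 prior variance) compared high with normal density over 26773 transcript clusters. Culture values were printed for called members, then for those past the FDR above background by size of change, up to 15 in all, and for the member with the highest signal of each cargo group without such a member. SLC25A16 was added after its values were seen. Called listed genes were named, at most 4 per list. Intervals are unadjusted 95% intervals.

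Alternatives were the methods' t-test, eBayes with trend and robust settings, array weights, a replicate block and removal of low signals. Further alternatives were arrays centred on their medians or quantile-normalized again, 1 transcript cluster per symbol and each culture left out. The t-test stands in for the analysis of variance that the authors ran in their software. It called 1611 transcript clusters, which is not the number the authors report. The fit was tested on simulated data with 200 transcript clusters changed by 1 log2 unit. It recovered 82% with 2 false calls, against 34.5% with 0 false calls by the methods' t-test. The simulation drew independent values with the same SD in both groups, unlike the spread seen here. These rates therefore do not carry over to the data. Figures were drawn with matplotlib 3.10.9.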

Additional observations from a re-analysis of the deposited data

How the results depend on the processing

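SLC25A20 and UCP2 were called under each of the 8 other settings and with each culture left out. The 3 called members became 5 with array weights, 3 of them up, and ran from 2 to 5 with a culture left out (1 to 3 up and 1 to 2 down). By the methods' t-test, and after a second quantile normalization, 1 was down. The 16 members past the FDR became 7 by the t-test and ran from 7 to 18 with a culture left out. The median log2 change of 0.0273 became 0.0689 with array weights, −0.0163 with median centring, −0.0142 with the second quantile normalization and −0.0273 with the filter on low signals, which removed the 13 members below background, and ran from 0.00275 to 0.0703 with a culture left out. Over all transcript clusters, 5106 past the FDR became 7977 with array weights and ran from 3025 to 7806 with a culture left out. The fit with the replicate block made the same 3 calls, and 11 members passed the FDR (without SLC25A17, SLC25A22, SLC25A23, SLC25A43 and SLC25A44). The labels do not say that same numbers mark shared cell pools, so the numbers were not taken as a pairing. Deviations of same-numbered cultures had correlations of 0.046, −0.046 and −0.041 for replicates 1 to 3. With 3 cultures per group these values cannot tell whether pools were shared. The causes of these shifts, apart from the members removed by the filter, were not tested. Signals near or below background give changes that are hard to measure, and 3 cultures per group leave intervals wide beside the median change.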

Other observations

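Carriers that the array lists under older symbols fell outside the symbol rule. SLC25A53, listed as MCART6, gave log2 signals of 4.55, 4.65 and 4.61 at normal and 4.02, 4.03 and 4.18 at high density. The groups were apart with a log2 change of −0.53 (SE 0.08, adjusted p = 0.00298 in limma), and both means (4.60 and 4.08) were below the background level. SLC25A51, listed as MCART1 and known to carry NAD, gave 7.87, 7.93 and 7.87 at normal and 7.71, 7.81 and 7.73 at high density. Its groups were apart too, with a log2 change of −0.14 (SE 0.07, adjusted p = 0.210 in limma).

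Some further genes outside the symbol rule passed the FDR without reaching an FC of 1.5, and they are named here after their values were seen. MCU, the pore of the calcium uniporter, gave signals of 7.48, 7.54 and 7.64 at normal and 6.95, 7.0003 and 7.01 at high density, a log2 change of −0.57 (SE 0.07, adjusted p = 0.00181 in limma). SFXN3, a serine carrier of the sideroflexin family, gave 6.32, 6.55 and 6.39 at normal and 6.96, 6.86 and 7.05 at high density, a log2 change of 0.53 (SE 0.09, adjusted p = 0.00611 in limma). MTCH2, a carrier-like protein of the outer membrane, gave 8.72, 8.68 and 8.79 at normal and 8.24, 8.39 and 8.25 at high density, a log2 change of −0.43 (SE 0.08, adjusted p = 0.00722 in limma). In all 3 genes the density groups did not overlap.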
